A study of Mus musculus with 6 samples.

Results

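The genes described here make sterols and fatty acids or control that synthesis, and were read in mouse CD4+ T cells before and after activation. They were chosen by name, with earlier results of these data known, and 39 genes were mapped by their NCBI gene identifiers. These are the enzymes of cholesterol and fatty acid synthesis and the factors SREBP (sterol regulatory element binding protein) and LXR (liver X receptor) with their partners. Also among the 39 are 3 LXR targets, set against the SREBP targets. All 39 were found among the 18446 genes of the expression table, and 36 had a mean of 1 FPKM or more over the 6 libraries. FPKM counts the fragments of a gene relative to its transcript length and to all mapped fragments of the library. The 3 members under that level were Scd1, Fads2 and Nr1h3.

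The study crossed 2 genotypes with 3 times and gave 1 library to each of the 6 groups. Wild-type mice (WT) and mice labelled Zak-/-, both on a C57BL/6 background and 6 to 8 weeks old, gave spleens and lymph nodes, from which naive CD4+ T cells (CD44 low, CD62L high) were sorted. Cells of both genotypes were taken at 0 h, or after 6 h or 48 h in medium with antibodies to CD3 and CD28. These antibodies stand in for antigen and costimulation. No group was kept in medium without the antibodies, so stimulation and time in culture cannot be told apart. The labels name the genotype Zak-/- in one place and a deficiency limited to T cells in another, name no Cre driver, and do not say how many mice were pooled. No group has a replicate, so each difference within a genotype or a time is that of 2 libraries and has no replicate check. A fit that pools the genotypes or the times was not run, and no p-values are given. A gene was counted as higher or lower when it differed by 2-fold or more on log2(FPKM + 1). This scale understates the change of low genes. Folds printed beside FPKM values are on it too, so they are not ratios of those values.

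Cells make cholesterol from acetyl-CoA through mevalonate, farnesyl diphosphate, squalene and lanosterol. When sterols in the endoplasmic reticulum run low, the carrier Scap takes SREBP to the Golgi, where it is cut and freed to switch on the synthesis genes; Insig proteins hold the complex back when sterols are plentiful. LXR works the other way: it is a nuclear receptor that oxidised sterols activate, and its targets export cholesterol or limit its uptake. Dividing lymphocytes need new membrane, and in T cells SREBP activity is known to follow activation while LXR signalling is known to restrain proliferation.

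The sequences before the start sites of 5 members are printed because these genes carry the contrast: Hmgcs1, Idi1 and Cyp51 are sterol synthesis genes, and Abca1 and Mylip are LXR targets. Each run is the 250 bases before the annotated start, 5′ to 3′ on the strand of the gene, from RefSeq on GRCm38.p6, a patch release of the mm10 build. The start used for Abca1 lies inside the gene's annotated span, so the end of its run overlaps that span. Capitals mark matches on either strand to CCAAT (the letters bound by the factor NF-Y, ATTGG when read on the other strand), TCACNCCAC (a sequence like the sterol regulatory element) or CACGTG (an E-box); no match printed here overlaps another.
Hmgcs1 (chr13:119690101-119690350, plus strand): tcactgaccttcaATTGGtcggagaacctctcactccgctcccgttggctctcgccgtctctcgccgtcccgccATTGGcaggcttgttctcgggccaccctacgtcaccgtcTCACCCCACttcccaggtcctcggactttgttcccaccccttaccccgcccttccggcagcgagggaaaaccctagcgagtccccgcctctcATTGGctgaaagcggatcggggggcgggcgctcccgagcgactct
Idi1 (chr13:8885356-8885605, plus strand): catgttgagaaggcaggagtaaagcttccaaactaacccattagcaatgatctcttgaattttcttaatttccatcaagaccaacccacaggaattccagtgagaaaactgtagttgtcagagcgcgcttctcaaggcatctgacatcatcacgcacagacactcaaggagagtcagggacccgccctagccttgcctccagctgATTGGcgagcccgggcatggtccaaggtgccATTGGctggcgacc
Cyp51 (chr5:4104698-4104947, minus strand): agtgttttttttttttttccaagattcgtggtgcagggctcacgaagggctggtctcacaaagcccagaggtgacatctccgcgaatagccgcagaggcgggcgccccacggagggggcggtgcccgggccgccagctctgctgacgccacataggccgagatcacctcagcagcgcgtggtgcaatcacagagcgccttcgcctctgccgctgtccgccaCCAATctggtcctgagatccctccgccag
Abca1 (chr4:53159896-53160145, minus strand): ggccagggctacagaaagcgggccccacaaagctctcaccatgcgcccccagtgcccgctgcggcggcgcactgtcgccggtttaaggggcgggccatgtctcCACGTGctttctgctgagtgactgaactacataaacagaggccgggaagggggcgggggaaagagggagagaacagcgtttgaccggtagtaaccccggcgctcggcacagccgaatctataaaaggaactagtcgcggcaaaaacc
Mylip (chr13:45389492-45389741, plus strand): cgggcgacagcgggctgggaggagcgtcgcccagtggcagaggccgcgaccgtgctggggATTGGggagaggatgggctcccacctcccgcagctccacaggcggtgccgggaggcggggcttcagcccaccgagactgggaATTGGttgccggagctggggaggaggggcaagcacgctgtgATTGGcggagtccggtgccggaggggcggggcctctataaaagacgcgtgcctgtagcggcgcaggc
Among these 5, TCACNCCAC was found in Hmgcs1, with its first base at position -137 from the start, and CCAAT in the same window at -237, -176 and -45. In Idi1, CCAAT was found at -45 and -14, and in Cyp51 at -29. Mylip, on the other side of the contrast, held CCAAT at -190, -108 and -67, and Abca1 held CACGTG at -147.

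Over windows of 300 bases (250 before and 50 after the start), RefSeq promoters were matched for 31 of the 39 members; Fdps, Fdft1, Sqle, Stard4, Scd1, Scd2, Fads1 and Abcg1 had no entry in the table used. CCAAT was found in 23 of the 31 (74.2%), against 41.1% of 27025 genes with a promoter and 44.1% of the 8400 that also passed the filter on expression. In the sterol list (the enzymes, Insig1 and Stard4) the share was 15 of the 16 with an entry (93.8%), Stard4 not being among them. In the fatty acid list it was 3 of 6. CACGTG was found in 7 of 31 (22.6%), namely Abca1, Dhcr7, Elovl5, Hsd17b7, Insig1, Sc5d and Scap, against 8.09% and 12.2%. TCACNCCAC was found in Hmgcs1 alone among the 31, against 1.44% and 1.3%. A gene with several promoters in the table was counted where any of them held the letters. These are matches of letters, not measured binding sites, and the absence of a match says only that the letters are not in this window.

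The libraries carried the markers of the labelled cell. The 12 naive CD4 T cell markers summed to 4660 and 4610 FPKM at 0 h (WT first), 3720 and 3740 at 6 h and 2700 and 2750 at 48 h. The sums for B cells, CD8 T cells, NK cells, erythroid cells and myeloid cells stayed between 0.16 and 12.8 FPKM in every library. The 8 liver markers summed to 27.6 and 33.4 FPKM at 0 h (WT first), 34.8 and 22.5 at 6 h and 48.9 and 2.82 at 48 h. Map3k20, the gene for Zak, stood in WT at 0.17, 0.19 and 1.35 FPKM at 0, 6 and 48 h. In the libraries labelled Zak-deficient it stood at 0.10, 0.10 and 1.61, so at 48 h its level did not separate the labels. At 0 h and 6 h its values were 0.19 FPKM or less, with 1 library each, too low to check the labels. Values of the second genotype are therefore given as those of the libraries labelled Zak-deficient, or of the other label. FPKM summed to 496045 to 546113 per library, and the table gives no read counts.

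Most sterol synthesis genes were higher at 48 h of stimulation than at 0 h in both genotypes, and LXR targets were lower. Of the 27 SREBP targets that passed the filter (20 of the sterol list and 7 of the fatty acid list), at 6 h 11 were at least 2-fold higher in WT and 12 with the Zak-deficient label, and at 48 h 19 were with each. None of the 27 was 2-fold lower in any of these comparisons. Among all 10347 genes that passed the filter, 8.94% and 9.08% were 2-fold higher at 6 h and 17.8% and 18.5% at 48 h. The 3 LXR targets were 1.72-fold to 1.97-fold lower at 6 h and at least 4.52-fold lower at 48 h in both genotypes. The shares of all genes at least 2-fold lower were 1.39% and 1.52% at 6 h and 12.3% and 12% at 48 h.

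**Figure D1:**
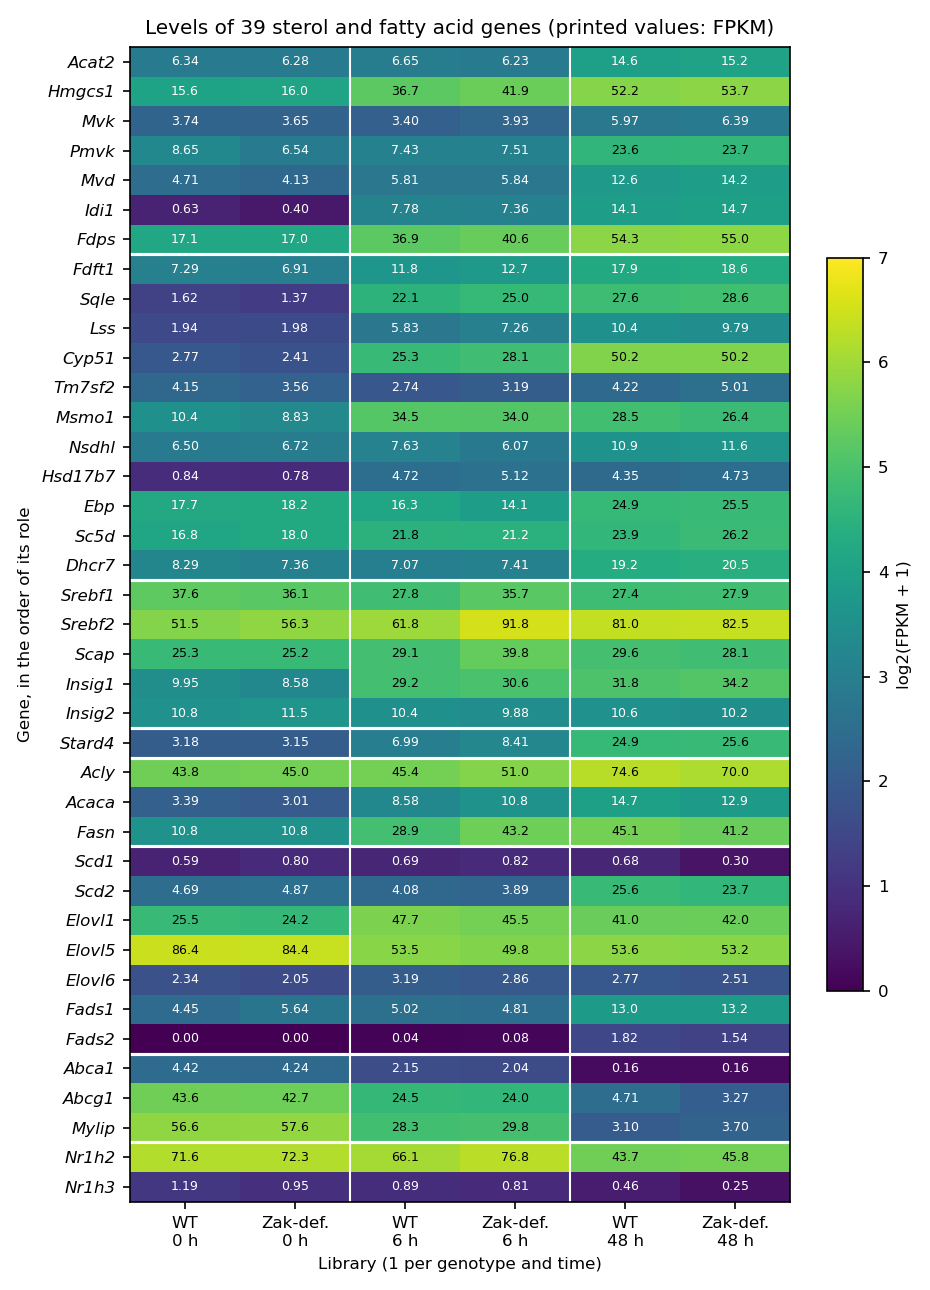
Levels of the 39 genes in each of the 6 libraries, as a heat map of log2(FPKM + 1) with the FPKM value printed in each cell; rows follow the genes' roles, white lines separate the roles and the times. The 3 LXR targets are darker at 48 h than at 0 h, and most sterol synthesis genes are brighter.

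The median log2 change of the 27 SREBP targets from 0 h was 0.35 at 6 h and 1.36 at 48 h in WT, and 0.42 and 1.57 in the libraries labelled Zak-deficient. Over all genes the medians were -0.06 and 0.00 in WT, and -0.08 and 0.06 in the libraries labelled Zak-deficient. For the 3 LXR targets the median was -0.81 at 6 h in each genotype, and at 48 h it was -2.97 in WT and -3.35 with the other label. The 48 h median of the LXR targets depended on the pseudocount in size: with 0.1 or 5 FPKM in place of 1 it was -4.12 or -2.32 in WT. These are bulk libraries, in which fewer cells that express a gene and less RNA per cell cannot be told apart. FPKM is also relative to all mapped fragments of a library, so it does not give the amount of RNA per cell.

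**Figure D2:**
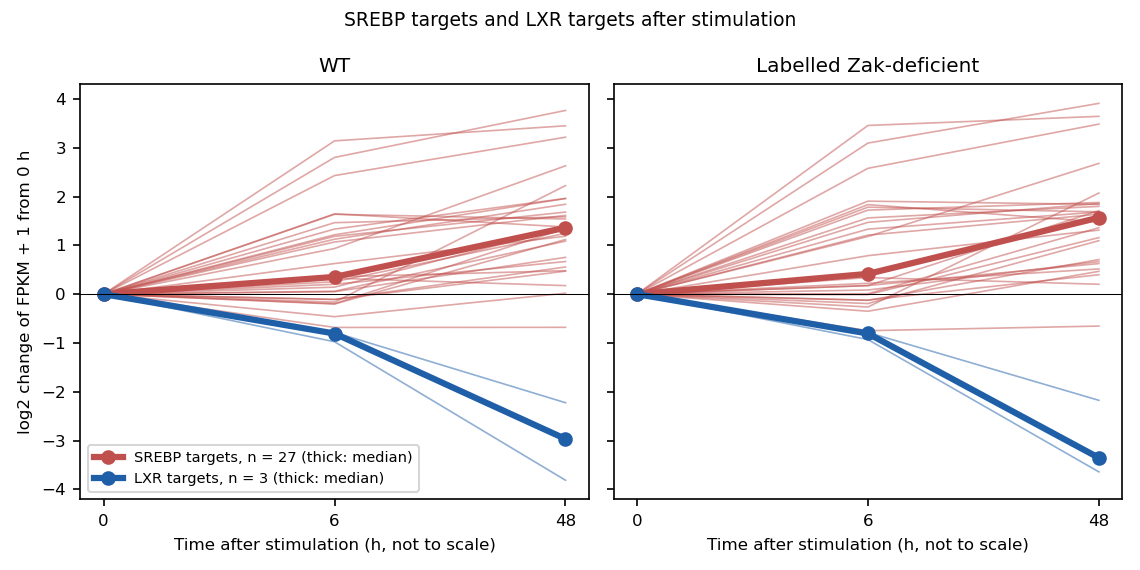
Log2 change of FPKM + 1 from 0 h for each of the 27 SREBP targets and 3 LXR targets (thin lines) and their medians (thick lines), with WT on the left and the libraries labelled Zak-deficient on the right; times are evenly spaced. The medians part at 6 h (0.35 against -0.81 in WT) and lie farther apart at 48 h (1.36 against -2.97).

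The mevalonate pathway has 7 enzymes among the members, and 6 of the 7 were higher by at least 2-fold at 48 h in both genotypes. Hmgcs1 (HMG-CoA synthase, chr13:119690351-119708260), which builds the precursor of mevalonate, stood at 15.6 FPKM at 0 h, 36.7 at 6 h and 52.2 at 48 h in WT, and at 16.0, 41.9 and 53.7 in the libraries labelled Zak-deficient. Idi1 (chr13:8885606-8892396), the isomerase that makes the reactive isoprene unit, went from 0.63 through 7.78 to 14.1 FPKM in WT and from 0.40 through 7.36 to 14.7 with the other label. Both genes thus had their lowest values in the 0 h libraries and their highest at 48 h, with no overlap between times. On FPKM + 1, Hmgcs1 was 3.21-fold higher at 48 h in each genotype, and Idi1 9.29-fold in WT and 11.2-fold with the other label.

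Fdps, which makes farnesyl diphosphate, followed the same order: 17.1, 36.9 and 54.3 FPKM at 0, 6 and 48 h in WT, and 17.0, 40.6 and 55.0 with the other label. Other steps were late, namely Acat2 (the thiolase that joins acetyl-CoA units), Pmvk (phosphomevalonate kinase) and Mvd (mevalonate diphosphate decarboxylase). Pmvk stood at 8.65, 7.43 and 23.6 FPKM in WT and at 6.54, 7.51 and 23.7 with the other label, so its 6 h libraries lay among the 0 h ones and only the 48 h libraries stood above them. Acat2 was late too, with 6.34, 6.65 and 14.6 FPKM in WT and 6.28, 6.23 and 15.25 with the other label. Mvd stood at 4.71, 5.81 and 12.6 FPKM in WT and at 4.13, 5.84 and 14.2, with its 6 h values slightly above both 0 h values. Mvk, mevalonate kinase, was the member of the group under the 2-fold rule at 48 h, at 3.74 FPKM at 0 h and 5.97 at 48 h in WT (1.47-fold) and 3.65 and 6.39 with the other label (1.59-fold).

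From squalene synthase (Fdft1) to cholesterol, 7 of 11 enzymes passed the 2-fold rule upward at 48 h in both genotypes, and 5 of them already at 6 h. Sqle (squalene epoxidase, chr15:59315092-59331193), which adds the oxygen that starts ring closure, stood at 1.62 FPKM at 0 h, 22.1 at 6 h and 27.6 at 48 h in WT and at 1.37, 25.01 and 28.6 with the other label. Cyp51 (lanosterol demethylase, chr5:4080674-4104697) stood at 2.77, 25.3 and 50.2 FPKM in WT and at 2.41, 28.1 and 50.2 with the other label. Sqle was close to its 48 h level at 6 h, whereas Cyp51 at 6 h was about midway in FPKM. The folds at 48 h were 10.9 and 12.5 for Sqle and 13.6 and 15 for Cyp51 (WT first). With a pseudocount of 0.1 FPKM in place of 1, the mean log2 change of both genotypes was 4.15 for Sqle and 4.23 for Cyp51, under the 4.58 of Idi1, so the order of the 3 depends on the pseudocount.

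Lss, lanosterol synthase, stood at 1.94, 5.83 and 10.4 FPKM in WT and at 1.98, 7.26 and 9.79 with the other label. Msmo1 (sterol methyl oxidase) and Hsd17b7 (a sterol ketone reductase) had a different course. Msmo1 was at 10.4, 34.5 and 28.5 FPKM in WT and 8.83, 34.05 and 26.4 with the other label, and Hsd17b7 at 0.84, 4.72 and 4.35 in WT and 0.78, 5.12 and 4.73. In both genotypes these genes were a little lower at 48 h than at 6 h, by 1.07-fold to 1.28-fold, less than the 2-fold rule.

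Squalene synthase, Fdft1, rose past the rule at 48 h only, from 7.29 through 11.8 to 17.9 FPKM in WT and from 6.91 through 12.7 to 18.6 with the other label. Dhcr7, the reductase of the final step of one route to cholesterol, was at 8.29, 7.07 and 19.2 FPKM in WT and 7.36, 7.41 and 20.5 with the other label. The other enzymes stayed under the 2-fold rule at each time. Tm7sf2 (a sterol reductase), Nsdhl (a sterol dehydrogenase), Ebp (a sterol isomerase) and Sc5d (a sterol desaturase) differed by 1.01-fold to 1.63-fold between 0 h and 48 h. Ebp and Sc5d were among the more abundant of these enzymes at 0 h, with 16.8 to 18.2 FPKM. The 18 sterol synthesis enzymes together summed to 135 and 130 FPKM at 0 h (WT first), 264 and 277 at 6 h and 399 and 410 at 48 h.

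Some of these values carry a further limit: 5 genes of the sterol and fatty acid lists share over 20% of their 50-base stretches with transcripts of other genes, and their values are uncertain where the estimation could split fragments. They are Acat2 (39.1%), Acaca (30.4%), Fdft1 (26.5%), Fdps (26.2%) and Idi1 (25.3%). In Acat2, 39.1% of all such stretches are shared on the same strand, with Acat3 as the main partner. On the opposite strand 11.2% in Acat2 are shared with Tcp1 or other genes, and 17.2% in Fdft1 with Ctsb or others. Whether the counting used strand is not given in the sources used here. Without the 5 genes, 14 of the remaining SREBP targets passed the 2-fold rule upward at 48 h in each genotype, and the direction of every median of the SREBP targets over time was kept.

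The control genes of SREBP did not move as a group. Insig1, the retention protein that is itself an SREBP target, stood at 9.95, 29.2 and 31.8 FPKM at 0, 6 and 48 h in WT and at 8.58, 30.6 and 34.2 with the other label. Insig2, its relative, stood at 10.8, 10.5 and 10.6 FPKM in WT and at 11.5, 9.88 and 10.2. At 0 h the pair had similar levels, and at 6 h and 48 h Insig1 was about 3 times its relative. Insig1 was 2.76-fold and 3.30-fold higher at 6 h (WT first), while Insig2 differed by at most 1.15-fold.

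Srebf2, which encodes the SREBP form tied to cholesterol synthesis, stood at 51.5, 61.8 and 81.0 FPKM in WT and at 56.3, 91.8 and 82.5 with the other label. Srebf1, whose products favour fatty acid synthesis, stood at 37.6, 27.8 and 27.4 FPKM in WT and at 36.1, 35.7 and 27.9. Neither gene changed by 2-fold in any comparison, and the ratio of their levels was higher at 48 h than at 0 h in both genotypes. Scap, the SREBP carrier, was at 25.3, 29.15 and 29.6 FPKM in WT and 25.2, 39.8 and 28.1. Stard4, a sterol transfer protein of the cytosol, was late and large: 3.18, 6.99 and 24.9 FPKM in WT and 3.15, 8.41 and 25.6, which is 6.19-fold and 6.41-fold higher at 48 h.

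**Figure D3:**
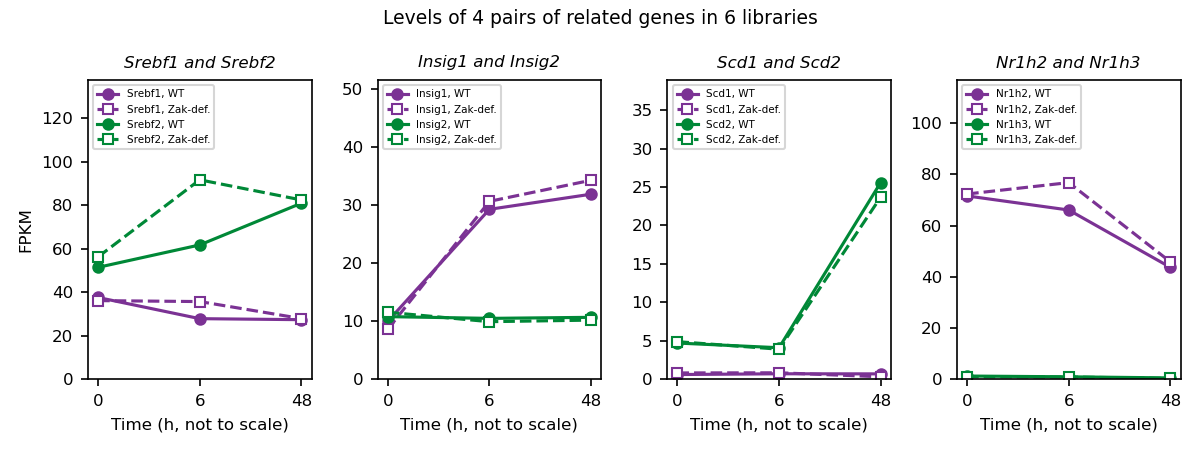
FPKM of 4 pairs of related genes at 0, 6 and 48 h (evenly spaced), with filled circles for WT and open squares for the libraries labelled Zak-deficient, 1 library per point. Insig1 and Scd2 are higher at 48 h while their relatives Insig2 and Scd1 are not, and Nr1h2 is far above Nr1h3 at every time.

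In fatty acid synthesis, Acaca and Fasn, which build the chain, were already higher at 6 h, and the desaturase genes Scd2 and Fads1 were so at 48 h. Acaca (acetyl-CoA carboxylase), which makes malonyl-CoA, stood at 3.39, 8.58 and 14.7 FPKM in WT and at 3.01, 10.8 and 13.0 with the other label. Fasn (fatty acid synthase, chr11:120805958-120825166) stood at 10.9, 28.9 and 45.1 FPKM in WT and at 10.8, 43.2 and 41.2. Acaca and Fasn were the 2 of 7 members of the list past the 2-fold rule at 6 h, and at 48 h Scd2 and Fads1 joined them. Acly, which supplies cytosolic acetyl-CoA, was already at 43.8 and 45.0 FPKM at 0 h and reached 74.6 and 70.0 at 48 h, 1.69-fold and 1.54-fold higher.

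Scd1 and Scd2 encode stearoyl-CoA desaturases and lie near each other on chromosome 19 (44394450 to 44407709 and 44293676 to 44306864). Scd2 stood at 4.69, 4.08 and 25.6 FPKM in WT and at 4.87, 3.89 and 23.7 with the other label, while Scd1 stayed between 0.30 and 0.82 in all 6 libraries. Scd2 was thus 4.67-fold and 4.20-fold higher at 48 h than at 0 h, and 5.23-fold and 5.05-fold higher than at 6 h. Fads1, a desaturase of polyunsaturated fatty acids, was at 4.45, 5.02 and 13.0 FPKM in WT and at 5.64, 4.81 and 13.2. Fads2, another such desaturase that lies near Fads1 on chromosome 19, was listed at 0 in both 0 h libraries, at 0.04 and 0.08 FPKM at 6 h and at 1.82 and 1.54 at 48 h.

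The elongases differed among themselves. Elovl1, which lengthens saturated chains, stood at 25.5, 47.7 and 41.0 FPKM in WT and at 24.2, 45.5 and 42.0 with the other label, 1.84-fold higher at 6 h in each. Elovl5, which lengthens polyunsaturated chains, stood at 86.4, 53.5 and 53.6 FPKM in WT and at 84.4, 49.8 and 53.2, which is 1.57-fold to 1.68-fold lower than at 0 h. Elovl6 stayed between 2.05 and 3.19 FPKM. Elovl5 was the SREBP target with a lower value at both later times in both genotypes, and no elongase passed the 2-fold rule.

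The LXR targets moved the other way, in all 6 libraries in the same order of times. Mylip (chr13:45389742-45411940), a ubiquitin ligase that marks lipoprotein receptors for degradation, stood at 56.6, 28.3 and 3.10 FPKM at 0, 6 and 48 h in WT and at 57.7, 29.8 and 3.70 with the other label. Abcg1 (chr17:31057694-31117984), a cholesterol exporter, stood at 43.7, 24.5 and 4.71 FPKM in WT and at 42.7, 24.0 and 3.27. Abca1 (chr4:53030789-53159988), the exporter that loads lipid onto apolipoproteins, stood at 4.42, 2.15 and 0.16 FPKM in WT and at 4.24, 2.04 and 0.16. For each gene both 6 h libraries lay below both 0 h libraries and above both 48 h libraries.

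At 48 h Mylip was 14.1-fold and 12.5-fold lower than at 0 h (WT first), Abcg1 7.82-fold and 10.2-fold, and Abca1 4.67-fold and 4.52-fold. The low level of Abca1 at 48 h makes its fold depend on the pseudocount: the mean log2 change of both genotypes was -2.20 with 1 FPKM, -4.09 with 0.1 and -0.85 with 5, and with 5 it missed the 2-fold rule. Together the 3 targets summed to 105 FPKM in each 0 h library, 55.0 and 55.8 at 6 h and 7.97 and 7.13 at 48 h. The 13 markers of myeloid and dendritic cells, which can also express these exporters, summed to 12.2 and 11.4 FPKM at 0 h, 11.3 and 7.94 at 6 h and 4.55 and 7.6 at 48 h. Of these markers, 9 of 13 were under 1 FPKM in every library, Cd14, Fcgr1, Itgax and Mrc1 were listed at 0 in WT at 0 h and Cd14 and Mrc1 in the other 0 h library. At 48 h 8 of the 13 were listed at 0 in WT and 1 with the other label, and the part of such cells in the fall was not tested.

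The receptor genes differed less between 0 h and 48 h than their targets. Nr1h2, which encodes LXRβ, stood at 71.6, 66.1 and 43.7 FPKM in WT and at 72.3, 76.8 and 45.8 with the other label, 1.62-fold and 1.57-fold lower at 48 h. Nr1h3, which encodes LXRα, stood at 1.19, 0.89 and 0.46 FPKM in WT and at 0.95, 0.81 and 0.25. Both receptor genes were lowest at 48 h, and neither differed by 2-fold in any comparison on the log2(FPKM + 1) scale.

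Set directly against each other, the median log2 change of the SREBP targets exceeded that of the LXR targets by 1.16 at 6 h and 4.33 at 48 h in WT, and by 1.22 and 4.92 in the libraries labelled Zak-deficient. Over the alternative settings the difference ran from 3.25 to 5.57 at 48 h in WT and from 3.60 to 5.61 with the other label. Its sign held in each of them, for lists that were chosen with earlier results of these data known. At 48 h 15 of the 20 sterol list members were at least 2-fold higher in each genotype, while the 3 LXR targets had log2 changes of -2.18 or lower.

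The SREBP targets did not share a time course; the 6 h and 48 h changes use the same 0 h libraries. The share of the 48 h log2 change that was already present at 6 h, from changes averaged over both genotypes, was 70.4% at the median of the 19 genes that were 2-fold higher at 48 h, against 47.6% for the 1700 such genes of the whole table. It was 50% or more for 12 of 19 (63.2%), against 820 of 1700 (48.2%). Msmo1 (122%), Hsd17b7 (106%), Sqle (93.0%) and Insig1 (92.0%) led, and Fasn (85.2%), Cyp51 (76.8%), Hmgcs1 (74.8%) and Idi1 (74.7%) followed.

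At the other end 6 of 19 (31.6%) were under 25%, against 36.8% of the 1700. They were Mvd (23.8%), Acat2 (2.22%), Pmvk (-0.67%), Fads1 (-2%), Dhcr7 (-7.84%) and Scd2 (-9.94%), where a negative share means a lower value at 6 h than at 0 h. Early and late genes thus stood side by side within the mevalonate enzymes, within the enzymes after squalene and within the fatty acid genes. For the LXR targets the share was 35.6% (Abca1), 25.6% (Mylip) and 25.5% (Abcg1), against a median of 41.8% for the 1052 genes that were 2-fold lower at 48 h in both genotypes.

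**Figure D4:**
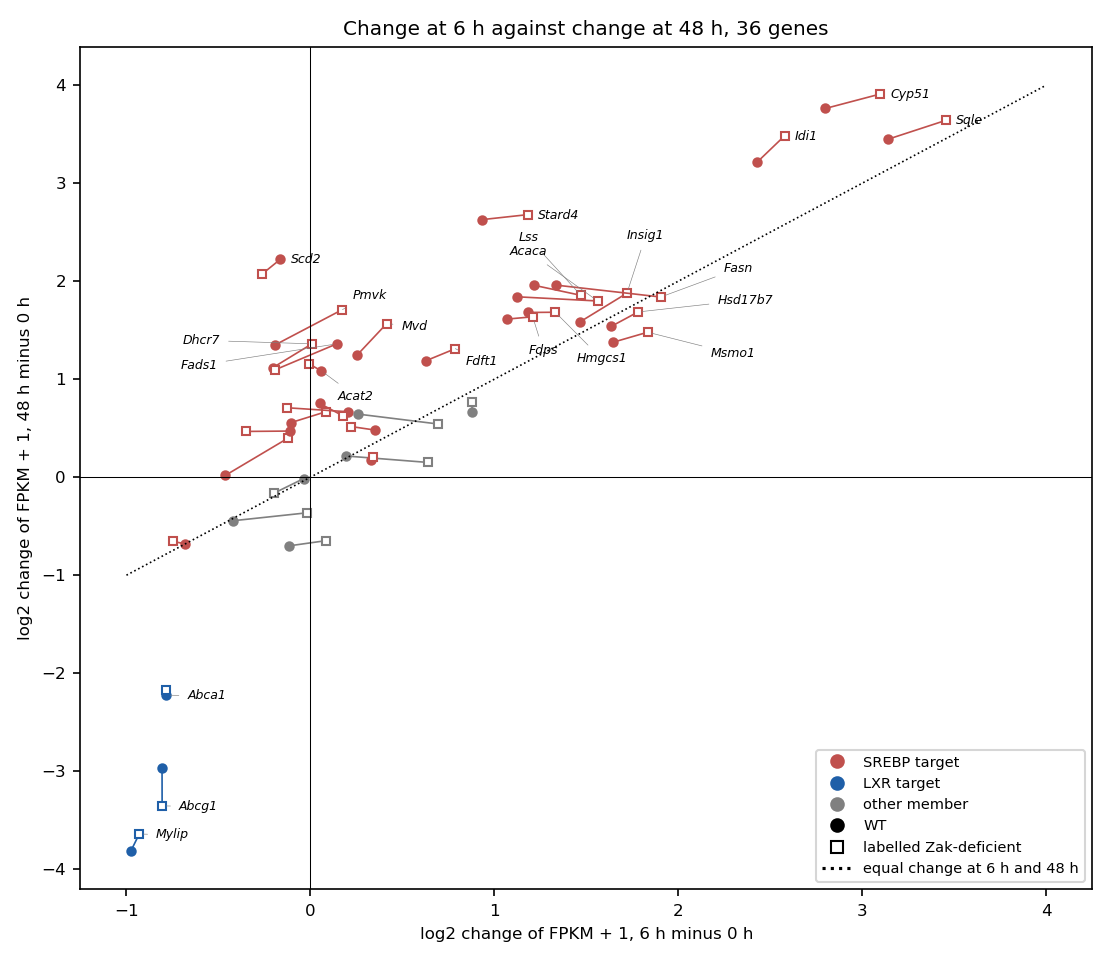
Log2 change of FPKM + 1 at 6 h (horizontal) and at 48 h (vertical), both from 0 h, for the 36 genes that passed the filter; a circle is WT, a square the libraries labelled Zak-deficient, and a line joins the same gene. Genes on the dotted line had reached their 48 h change at 6 h, as Sqle and Insig1 nearly had, whereas Scd2, Pmvk, Dhcr7, Fads1 and Acat2 lie near 0 on the horizontal axis.

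From 6 h to 48 h, 6 SREBP targets were past the 2-fold rule upward in WT and 7 with the other label, against 9.32% and 10.8% of all genes. Of 27, Acat2, Dhcr7, Fads1, Pmvk, Scd2 and Stard4 were so in both genotypes. All 3 LXR targets were at least 2-fold lower over the same interval in both, by 2.62-fold (Abca1) to 7.15-fold (Mylip), where 6.15% and 6.55% of all genes were. The balance of these background counts depends on the scaling. With a common sum per library, 810 genes were 2-fold higher and 279 lower at 6 h in WT in place of 925 and 144, and with median ratio scaling 924 were higher and 882 lower from 6 h to 48 h in the libraries labelled Zak-deficient in place of 1121 and 678.

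Between the genotypes no member was 2-fold apart at any time (0 of 36 at 0, 6 and 48 h), where 0.271%, 0.251% and 2.23% of all genes were, so a count of 0 lies near the background. The median member differed 1.04-fold, 1.08-fold and 1.05-fold at these times, against 1.06-fold, 1.10-fold and 1.06-fold for all genes. The widest gap at 0 h was Pmvk (8.65 FPKM in WT against 6.54, 1.28-fold), and at 48 h Abcg1 (4.71 against 3.27, 1.34-fold). No change from 0 h was 2-fold apart between the genotypes either (0 of 36 at 6 h and at 48 h), where 0.58% and 1.78% of all genes were.

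At 6 h the widest gaps were in Fasn (28.9 FPKM in WT against 43.2, 1.48-fold), Srebf2 (61.8 against 91.8, 1.48-fold) and Scap (29.15 against 39.8, 1.35-fold). Each of the 3 was higher with the Zak-deficient label at 6 h, under every scaling tried, while at 0 h their values in the 2 genotypes were within 1.09-fold. At 6 h the log2 difference between the libraries also rose with GC content across 10211 genes (Spearman's rho 0.47, Pearson's r 0.43, genes that share the same 2 libraries), with a median of -0.17 in the lowest of 20 GC bins and 0.20 in the highest. The rho was -0.11 at 0 h and 0.09 at 48 h.

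Fasn (57.9% GC), Srebf2 (57.9%) and Scap (59.1%) are among the GC-rich members. Centred on genes of like GC content and length, the 6 h log2 difference was 0.24 in place of 0.57 for Fasn, 0.36 in place of 0.56 for Srebf2 and 0.25 in place of 0.44 for Scap. Hmgcs1, with a GC content of 43.1%, went from 0.19 to 0.31. This centring was added after the data were seen, and under it no change of a member from 0 h to 6 h or 48 h moved by over 1.5-fold. The 48 h log2 change of Acat2, averaged over both genotypes, was 0.93 in place of 1.12 and no longer passed the 2-fold rule.

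**Figure D5:**
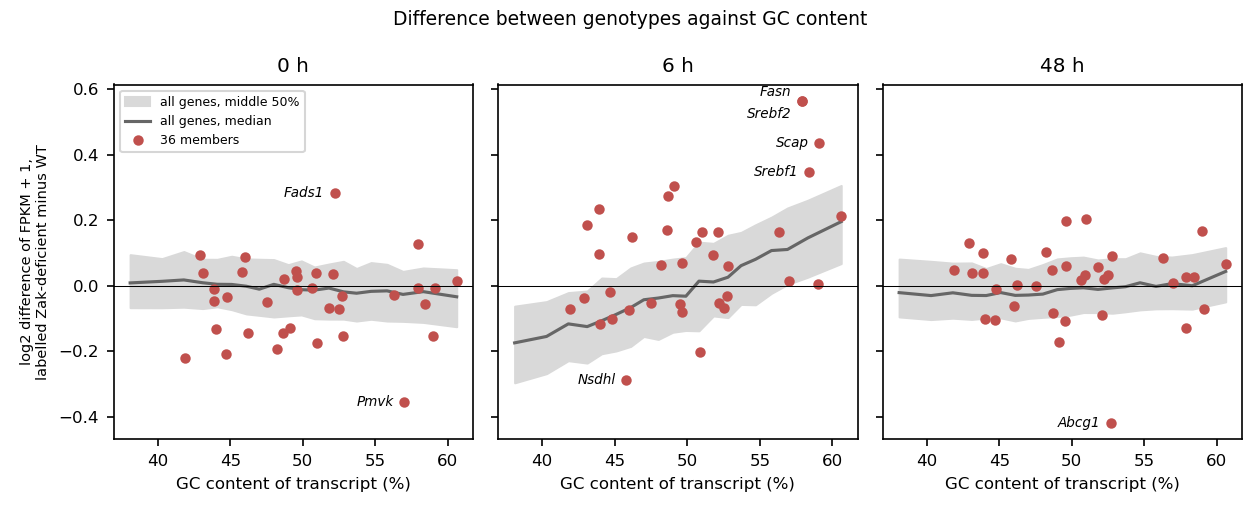
Log2 difference of FPKM + 1 between the libraries labelled Zak-deficient and WT at 0, 6 and 48 h for the 36 members (points), against transcript GC content, with the median (line) and middle 50% (band) of all genes in 20 GC bins. At 6 h the band climbs from a median of -0.17 to 0.20, and Fasn, Srebf2 and Scap lie above it.

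The lowest members carried a further difference at 48 h. Scd1 stood at 0.68 FPKM in WT and 0.30 with the other label, and Nr1h3 at 0.46 and 0.25. In the same libraries 8 liver marker genes summed to 48.9 FPKM in WT and 2.82 with the other label, where Alb, Apoa1, Fgb, Serpina1c and Ttr were listed at 0; in the other 4 libraries the sum was 22.5 to 34.8 and none of the 8 was at 0. The part of such transcripts in the values of Scd1 and Nr1h3 was not tested.

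Neighbouring pathways are given beside the whole table: among all 10347 genes, 1700 (16.4%) were higher and 1052 (10.2%) lower at 48 h in both genotypes. In the branch that leads from farnesyl diphosphate to other isoprenoids, 2 of 13 genes passed the 2-fold rule upward at 48 h in both genotypes and 1 downward: Pdss1, which makes the tail of coenzyme Q, went from 0.68 to 7.56 FPKM in WT, Dhdds, of dolichol synthesis, from 7.58 to 19.1, and Ggps1, which makes geranylgeranyl diphosphate, from 26.5 to 11.3. Of the genes of SREBP processing and sterol sensing, those named here are Tmem97 and Rnf145. Tmem97, a sterol-responsive protein of the endoplasmic reticulum, stood at 1.13 FPKM at 0 h, 22.2 at 6 h and 31.6 at 48 h in WT, a course like that of Sqle. Rnf145, a sterol-responsive ubiquitin ligase, stood at 161, 90.0 and 54.0 FPKM, lowest at 48 h like the LXR targets.

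Of 12 genes of sterol uptake, transport and storage, 9 passed the filter. Among these 9, 1 was higher in both genotypes at 48 h and 1 lower. Scarb1, a receptor that takes up cholesteryl esters, went from 2.56 FPKM at 0 h to 16.2 at 48 h in WT and from 2.28 to 15.0 with the other label. Lipa, the lysosomal lipase that frees cholesterol from esters, went from 42.4 to 16.8 and from 40.0 to 18.2. Of 8 further genes linked to LXR, 5 passed the filter. Among these 5, 2 were lower in both genotypes at 48 h and none higher. Arl4c, a small GTPase, went from 58.8 to 10.8 FPKM in WT and Smpdl3a, a phosphodiesterase, from 49.6 to 23.8.

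Of 27 genes of fatty acid supply and activation, 16 passed the filter. Among these 16, 4 were higher and 2 lower at 48 h in both genotypes. Acsl5, an acyl-CoA synthetase, stood at 15.9, 51.0 and 141 FPKM in WT at 0, 6 and 48 h. The acetyl-CoA synthetases went down, Acss1 from 27 to 2.42 FPKM and Acss2, itself known as an SREBP target, from 32.0 to 7.20, in WT. Hacd1, a dehydratase of chain elongation, stood at 0.16, 0.87 and 2.02 FPKM in WT and at 0.22, 1.04 and 2.47 with the other label. It passed the filter of a mean of 1 FPKM only through its 48 h values, so its place among the higher genes is no independent result. Hsd17b12, a reductase of elongation (21.8 to 52.5), and Mecr, of mitochondrial fatty acid synthesis (7.50 to 23.2), complete the higher genes and were named after their values were seen.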

How the data were processed

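The values are FPKM, a unit that corrects for transcript length and library size, in a table that the authors deposited with 1 column per library. Bowtie mapped the reads and RSEM estimated the levels on mm10, per the submitters' processing notes; their versions were not given in the sources used here. RSEM divides fragments that match several genes among them, which can touch genes with near-identical copies. Of its 18446 NCBI gene identifiers, 18326 matched a symbol in the RefSeq gene table.

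Differences were taken on log2(FPKM + 1) without rescaling, over the 10347 genes that averaged at least 1 FPKM. With 1 library per group no test was fitted, and called means a fold of 2 or more. A list is described by its counts and median beside those of all genes. The precision of a value is not known, since the table gives no read counts and there are no replicates. The code was run on simulated data with a set shift and a set noise, which checks the arithmetic and not the precision of the values.

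SREBP targets are the sterol list (the 18 enzymes, Insig1 and Stard4) and the fatty acid list (the fatty acid members save Elovl1). The members and lists were chosen with earlier results of these data known. Every member could be named; of each neighbouring list the 2 genes with the highest and the 2 with the lowest 48 h change could be named, and any name outside this rule is marked as picked with its values known. Alternatives changed the pseudocount (0.1 or 5 FPKM), the filter (absent, or 5 FPKM), the scaling (common sum, median ratio, upper quartile), the fold rule (1.5 or 4) and the median (mean). Centring on 20 bins of GC content and then of length, and leaving out members that share over 20% of their 50-base stretches with other genes, came later, with the data already seen. GC content, length and shared stretches came from GENCODE M21 transcripts, found for 98.7% of the filtered genes. Coordinates are those of RefSeq on GRCm38 (mm10). Python 3.11.15, numpy 2.4.6, pandas 2.3.3 and matplotlib 3.10.9 were used.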

Additional observations from a re-analysis of the deposited data

How the results depend on the processing

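Each value of a list was recomputed under 9 to 10 alternatives and each value of a single member under 6. None changed the sign of a called value. Of 366 values of the lists, 344 stayed within 1.5-fold, with log2 values read as folds and counts as ratios, and 22 did not. Within this limit small log2 values could differ much in proportion. For the SREBP targets at 6 h in WT the median was 0.35 and the mean 0.74. Medians between the genotypes could change sign. That of the SREBP targets at 48 h was 0.04, and -0.13 with median ratio scaling. With a pseudocount of 0.1 FPKM the median log2 change of the LXR targets was -4.12 from 0 h to 48 h and -3.11 from 6 h to 48 h in WT, and the SREBP median exceeded the LXR median by 5.57 and 3.76 in WT and by 5.61 from 0 h to 48 h in the libraries labelled Zak-deficient. With 5 FPKM the LXR median from 0 h to 48 h was -2.32 in WT and -2.53 with the other label, and from 6 h to 48 h -1.81 with the other label; the excess of the SREBP median was 3.25 and 3.60 from 0 h and 2.11 and 2.20 from 6 h (WT first). Low values at 48 h give the pseudocount this weight. With 5 FPKM, 7 SREBP targets were 2-fold higher at 6 h in WT, 13 in WT and 15 with the other label at 48 h, and 4 from 6 h to 48 h with the other label. With a 4-fold rule the counts of higher SREBP targets were 3 and 3 at 6 h, 5 and 5 at 48 h and 1 and 1 from 6 h to 48 h, and with a 1.5-fold rule the last were 14 and 11. Between the genotypes the count of members past the fold rule was 0 at each time under every alternative, the 1.5-fold rule included. Of 468 values for single members, 22 moved by over 1.5-fold, all with another pseudocount; with 5 FPKM 12 mean changes of both genotypes missed the 2-fold rule: Fdps (0.99), Lss (0.73), Hsd17b7 (0.77), Stard4 (0.64) and Acaca (0.84) at 6 h and Acat2 (0.82), Mvd (0.96), Fdft1 (0.94), Hsd17b7 (0.72), Dhcr7 (0.95), Fads1 (0.85) and Abca1 (-0.85) at 48 h. Centred on GC content and length, Acat2 missed it at 48 h (0.93). At 6 h Abca1 came to pass it with 0.1 FPKM (-1.01) and Mylip with common sum (-1.01) and upper quartile (-1.02) scaling. Against no rescaling, a common sum lowered the median of all genes by 0.12 from 0 h to 48 h with the Zak-deficient label, and median ratio scaling lowered it by 0.14 from 6 h to 48 h with that label and by 0.16 between the genotypes at 48 h. A fit of genotype and time without their interaction, which would pair the genotypes by time over the 6 libraries, was not run.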

Other observations

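Genes of lipid assembly and breakdown are counted beside all 10347 genes, of which 16.4% passed the 2-fold rule upward and 10.2% downward at 48 h in both genotypes. Of 21 genes of glycerolipid and phospholipid synthesis, 19 passed the filter. Among these 19, 2 passed the 2-fold rule upward at 48 h in both genotypes and 1 downward. Agpat5, an acyltransferase of phosphatidic acid synthesis, stood at 3.65 FPKM at 0 h, 12 at 6 h and 10.3 at 48 h in WT, and Agpat4 at 1.73, 2.25 and 4.92. Dgat1, which makes the storage lipid triacylglycerol, stood at 39.1, 23.3 and 7.20 FPKM in WT and at 43.6, 24.2 and 7.75 in the libraries labelled Zak-deficient, 4.89-fold and 5.10-fold lower at 48 h.

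Of 19 genes of fatty acid oxidation, 17 passed the filter. Among these 17, 1 was at least 2-fold higher at 48 h in both genotypes and none lower. Hadh, a mitochondrial dehydrogenase, stood at 8.31, 4.97 and 23.4 FPKM in WT and at 7.47, 5.14 and 23.7 with the other label. Acadm, a medium-chain dehydrogenase, stood at 36.6, 22.8 and 16.4 FPKM in WT and at 33.3, 20.5 and 17.6, which is 2.16-fold and 1.84-fold lower at 48 h.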
